A study of Mus musculus with 6 samples.

Results

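Toll-like receptors are membrane proteins that bind microbial molecules and molecules released by damaged cells. Most of them signal through the adaptor MyD88, which gathers the kinases IRAK4, IRAK1 and IRAK2 and, through the ubiquitin ligase TRAF6, leads to NF-kB and MAP kinases. Epithelial tumour cells can carry some of these receptors, although the family is best known from macrophages and dendritic cells.

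The 10 genes described here are the receptor genes Tlr2, Tlr3, Tlr4 and Tlr6, the co-receptor gene Cd14, the adaptor gene Myd88 and the kinase-family genes Irak1, Irak2, Irak3 and Irak4. They were chosen by name from a table of 55571 entries, with earlier results of these data known. All 10 passed the filter on low counts that left 13594 tested genes. RNA was sequenced from E0771 cells, a mouse mammary carcinoma line, in 3 libraries labelled as vector control and 3 libraries with wild-type Malt1 (Malt1-WT). MALT1 is a scaffold and protease that acts upstream of NF-kB in other receptor pathways. The title of the series gives a basal condition for both groups, and the labels name no stimulus or ligand. The labels name neither the promoter behind the introduced Malt1 nor the number of clones. Whether replicate libraries derive from separate cultures is not stated in the labels, so p-values measure only the spread between these libraries, which may be technical.

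Total counts ranged from 17601656 to 20543778 per library, and a count of 0 in a library allows a level of up to 0.147 to 0.175 CPM (3 counts per library, counting error only). CPM here is the depth-scaled count, with the TMM factors of edgeR applied to each library. Malt1 itself had 28.5, 31.0 and 30.3 CPM with the vector control, and 309, 308 and 297 CPM with Malt1-WT, a 10.2-fold difference. Of 8 epithelial markers, Krt8 was at a mean of 68.5 CPM, Erbb3 at 19.8 to 20.4 CPM and Epcam at 6.30 CPM in the vector control, while Krt18, Krt7, Krt19, Cdh1 and Cldn4 had too few counts to be tested. In Malt1-WT Krt8 was lower (log2 fold change -0.20), Erbb3 was higher (0.44) and Epcam did not pass (-0.02). Several Toll-like receptor genes and Cd14 are also leukocyte genes, so a list of 13 leukocyte markers was read in the same libraries. Tyrobp had no count, and Ptprc had 0 to 3 counts per library. The summed level of the list was 28.7 to 32.7 CPM in the vector control and 37.3 to 41.6 CPM in Malt1-WT. Ptprc, Tyrobp, Itgam, Cd52, Laptm5 and Spi1 had too few counts to be tested. Of the 7 tested leukocyte markers, 4 were higher (Cd68, Adgre1, Coro1a and Itgb2) and 2 lower (Lyz2 and Fcer1g), while Csf1r did not pass. For these marker counts, the shares over all tested genes are 31.0% higher and 30.2% lower. Of 5 endothelial markers Emcn had no count and 2 were tested, of which Pecam1 was higher (log2 fold change 1.02, edgeR adjusted p = 4.78e-09) and 1 did not pass. The summed level of the endothelial list was 4.57 to 5.84 CPM in the vector control and 10.3 to 10.7 CPM in Malt1-WT. Most of it was Pecam1, with means of 4.77 and 9.68 CPM. Cdh5 was the gene that did not pass, and Kdr and Tek had too few counts to be tested. The part of these marker lists in the results below was not tested.

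Of the 10 genes, 7 were higher in Malt1-WT, 0 were lower and 3 did not pass (edgeR quasi-likelihood test, adjusted p under 0.05 over all tested genes). In the same test 61.2% of all tested genes changed, 31.0% being higher and 30.2% lower, so a call by itself does not set a gene apart in these libraries. With scaling by library size alone, 3528 genes were higher and 5006 lower (41.3% of calls higher, against 50.6%), and 6 of the 10 genes were higher and 1 lower. Their median log2 fold change was 0.53, and that of all tested genes was -0.003. The size of the change differed between the genes. Irak2 and Tlr2 rose almost 4-fold, Tlr6 rose 2.72-fold, Tlr3, Cd14 and Myd88 rose by 1.31-fold to 1.77-fold, and Irak1 rose 1.10-fold. Tlr4, Irak3 and Irak4 did not pass the test. In RNA from whole cultures, a change in the share of cells with a transcript and a change in RNA per cell cannot be told apart.

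**Figure D1:**
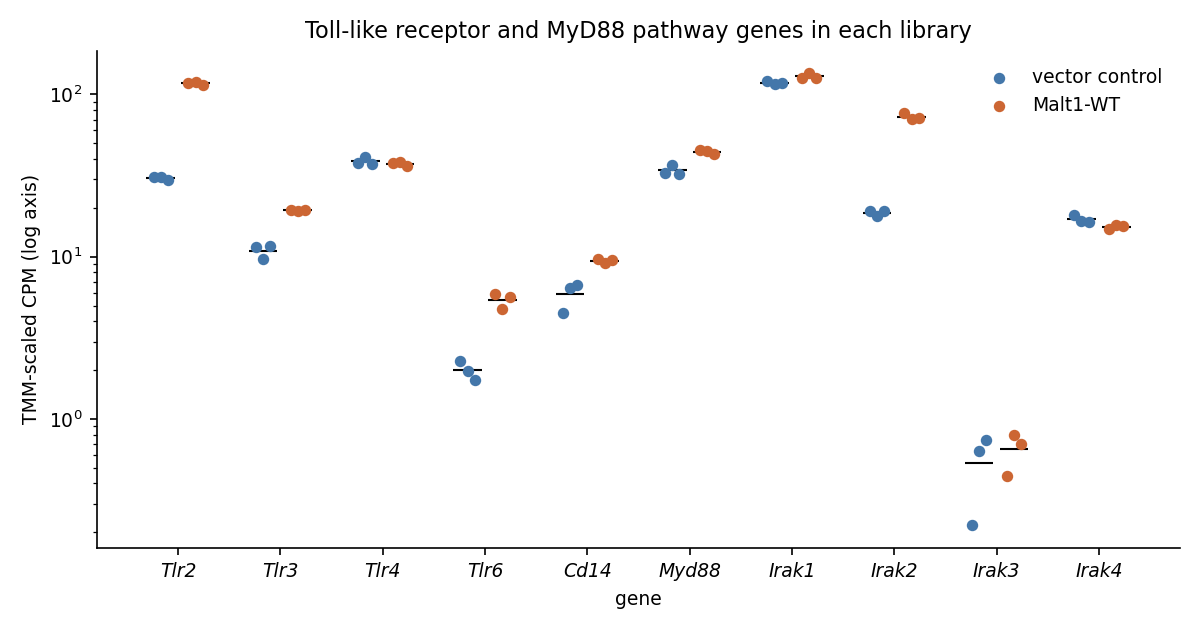
Expression of the 10 genes in each library, as TMM-scaled CPM on a log axis. Each point is 1 library, blue for the vector control and orange for Malt1-WT, and black bars are group means. The Malt1-WT points of Tlr2 (115 to 120 CPM) and Irak2 (71.1 to 76.4 CPM) lie far above those of the vector control, while the groups overlap for Tlr4 and Irak3.

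Tlr2 encodes the receptor for bacterial lipoproteins, which works as a dimer with TLR1 or TLR6. The gene lies on chromosome 3 (83836272 to 83841767, minus strand, GRCm38). In the order of replicates 1 to 3, used throughout, its counts were 564, 635 and 596 with the vector control and 2120, 2417 and 1962 with Malt1-WT. The corresponding levels were 31.1, 31.1 and 29.6 CPM against 118, 120 and 115 CPM, so every Malt1-WT library was above every vector control library. Tlr2 rose by 1.95 on the log2 scale (SE 0.0487, edgeR adjusted p = 1.29e-36), which is 3.85-fold with a 95% interval of 3.60 to 4.12. The spread between libraries was small, with a coefficient of variation of 2.86% with the vector control and 2.55% with Malt1-WT. Counting error alone would give 4.09% and 2.15%. Of the 13594 tested genes, 423 had a larger log2 fold change.

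The promoter windows of these genes were read because Tlr2 and Irak2 rose by nearly the same factor. The windows are those of RefSeq on GRCm38.p6, 250 bases before to 50 bases after each start site, and 8 of the 10 genes were matched. Tlr4 and Cd14 were not. The motifs searched were the NF-kB consensus, the interferon-stimulated response element core (GAAA, any 2 bases, GAAA) and the AP-1 motif TGANTCA, each on both strands. An NF-kB match was present in 8.46% of all 32851 windows, a response element core in 3.44% and an AP-1 match in 7.81%. The sequences below are the parts without annotated exon bases for Tlr2, Irak2 and Tlr6, the 3 genes with the largest increase, and for Myd88, with NF-kB and response element core matches in capitals. The Tlr2 stretch covers chr3:83841768-83841858 on the minus strand, that of Irak2 chr6:113638217-113638466 on the plus strand, that of 1 of the 2 Tlr6 windows chr5:64959167-64959416 on the minus strand and that of Myd88 chr9:119340042-119340268 on the minus strand. The Tlr2 and Irak2 stretches lie upstream of the annotated genes. Those of Tlr6 (annotated at 64952031 to 64960097) and Myd88 (119335934 to 119341411) lie inside the annotated genes, at start sites within them. The start site of the Tlr2 window also lies inside the annotated gene, and 159 of the 250 bases before it are Tlr2 exon bases.
Tlr2: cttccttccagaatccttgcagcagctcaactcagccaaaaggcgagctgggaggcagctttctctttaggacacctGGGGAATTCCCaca
Irak2: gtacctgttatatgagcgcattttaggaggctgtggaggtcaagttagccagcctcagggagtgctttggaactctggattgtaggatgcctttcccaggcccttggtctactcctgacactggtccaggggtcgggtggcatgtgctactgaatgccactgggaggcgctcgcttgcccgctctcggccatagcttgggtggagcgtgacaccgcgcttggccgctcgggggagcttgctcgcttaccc
Tlr6: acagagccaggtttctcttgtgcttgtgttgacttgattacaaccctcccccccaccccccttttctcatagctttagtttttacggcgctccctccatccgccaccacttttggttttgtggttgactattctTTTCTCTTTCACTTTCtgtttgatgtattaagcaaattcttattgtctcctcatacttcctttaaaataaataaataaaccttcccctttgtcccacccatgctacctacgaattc
Myd88: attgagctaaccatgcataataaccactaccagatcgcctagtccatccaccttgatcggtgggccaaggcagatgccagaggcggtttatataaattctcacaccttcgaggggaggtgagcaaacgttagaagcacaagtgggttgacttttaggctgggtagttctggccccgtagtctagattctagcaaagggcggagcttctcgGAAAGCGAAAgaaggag
The capitals in the Tlr2 stretch are a pair of overlapping NF-kB matches that begin at positions -173 and -172, counted from the start base as 0, and a further match lies across the start site. Those of Tlr6 are 2 overlapping response element cores on the opposite strand, from position -116 to -101, and the core in Myd88 begins at position -40. The other Tlr6 window, which spans the place where the annotated gene begins, and the Irak2 window held none of the 3 motifs. Of the others, Tlr3 had 1 NF-kB match, in a window that also lies inside the annotated gene. Irak1 had 1, the same match in both of its 2 largely overlapping windows, while Irak3 and Irak4 had none. No AP-1 match was found in a window of these 8 genes. A match is a string of letters and not a measured binding site, and no match says only that these letters are not in this window.

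Tlr6 encodes a partner of TLR2 in the recognition of diacylated lipoproteins. Its counts were low, with 41, 40 and 35 with the vector control and 105, 95 and 96 with Malt1-WT, or 2.26, 1.96 and 1.74 CPM against 5.87, 4.74 and 5.61 CPM. The groups did not overlap, and Tlr6 rose by 1.44 (log2 fold change, SE 0.191, edgeR adjusted p = 4.67e-09), 2.72-fold with a 95% interval of 2.08 to 3.54. Tlr1, named after its value was seen, encodes the other partner of TLR2 and had 3 counts in the vector control libraries together and 1 in those of Malt1-WT. Of the 100-base words in Tlr6 transcripts, 7.09% also occur in those of Tlr1, so reads from these parts cannot be assigned to 1 of the 2 genes.

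Tlr3 encodes the endosomal receptor for double-stranded RNA, which signals through the adaptor TRIF and not through MyD88. Its counts were 207, 196 and 236 with the vector control and 346, 382 and 332 with Malt1-WT. The levels were 11.4, 9.61 and 11.7 CPM against 19.3, 19.0 and 19.4 CPM, with no overlap of the groups. Tlr3 rose by 0.82 (log2 fold change, SE 0.0947, edgeR adjusted p = 1.16e-10), which is 1.77-fold.

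Tlr4 encodes the receptor for bacterial lipopolysaccharide, and it was the receptor gene of the 4 that did not pass the test. Its counts were 690, 845 and 747 with the vector control and 677, 769 and 621 with Malt1-WT, or 38.0, 41.4 and 37.1 CPM against 37.8, 38.3 and 36.3 CPM. The groups overlapped, and the log2 fold change was -0.05 (SE 0.0615, edgeR adjusted p = 0.484). The 95% interval of the fold, 0.885 to 1.05, does not reach the 3.6-fold that is the lower bound for Tlr2. Ly96 encodes MD-2, the protein that TLR4 needs to bind lipopolysaccharide, and was looked up after the values were seen. It had 1, 4 and 1 counts with the vector control and 6, 6 and 8 with Malt1-WT, too few to be tested.

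Cd14 encodes a surface protein that hands lipopolysaccharide and other ligands to TLR4 and TLR2. Its counts were 82, 131 and 135 with the vector control and 174, 183 and 163 with Malt1-WT, or 4.52, 6.42 and 6.71 CPM against 9.72, 9.12 and 9.52 CPM. Every Malt1-WT library was above every vector control library, but vector control replicate 1 lay well below the other 2. The coefficient of variation of the vector control was 20.2%, where counting error alone would give 9.28%, against 3.21% in Malt1-WT. Cd14 rose by 0.67 (log2 fold change, SE 0.134, edgeR adjusted p = 1.90e-05), 1.6-fold. Without vector control replicate 1 the log2 fold change was 0.52, and it still passed (edgeR adjusted p = 9.46e-04).

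Myd88 encodes the adaptor shared by most Toll-like receptors and the interleukin-1 receptor family. It is on chromosome 9 (119335934 to 119341411, minus strand, GRCm38). Its counts were 599, 750 and 650 with the vector control and 816, 905 and 734 with Malt1-WT, or 33.0, 36.8 and 32.3 CPM against 45.6, 45.1 and 42.9 CPM. The groups did not overlap, and Myd88 rose by 0.39 (log2 fold change, SE 0.0617, edgeR adjusted p = 3.17e-07), 1.31-fold with a 95% interval of 1.2 to 1.43. Its exons share 290 bases (11.3% of their length) with Acaa1a on the opposite strand, whose log2 fold change was -0.02 (adjusted p = 0.860).

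**Figure D2:**
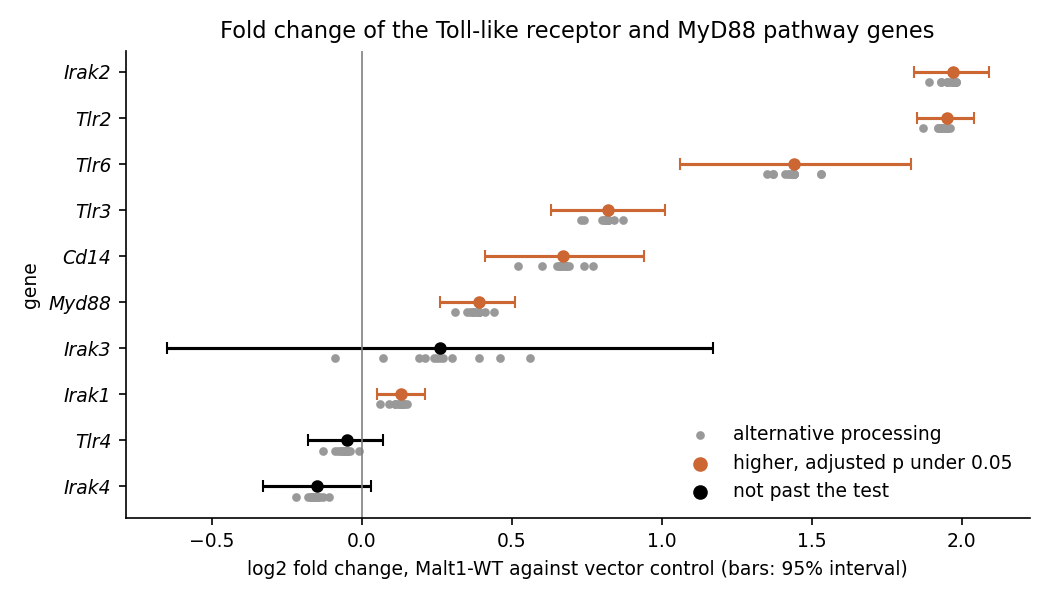
Log2 fold change of Malt1-WT against vector control for the 10 genes, with 95% intervals as bars. Orange points passed the test as higher, black points did not pass, and small grey points are the values under up to 13 other ways of processing. Irak2 (1.97) and Tlr2 (1.95) stand at the top, and the interval of Irak3 (-0.65 to 1.17) is the widest.

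The IRAK genes encode the kinases that bind MyD88. IRAK4 and IRAK1 are active kinases, while IRAK2 carries the signal with weak or no kinase activity of its own and IRAK3, also named IRAK-M, holds the pathway back. Of the 4 genes, 2 rose and 2 did not pass the test.

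Irak2 lies on chromosome 6 (113638467 to 113695026, plus strand, GRCm38). Its counts were 344, 364 and 386 with the vector control and 1367, 1426 and 1220 with Malt1-WT. The levels were 19.0, 17.9 and 19.2 CPM against 76.4, 71.1 and 71.2 CPM, so the groups were far apart. Irak2 rose by 1.97 (log2 fold change, SE 0.0611, edgeR adjusted p = 1.73e-32), 3.91-fold with a 95% interval of 3.59 to 4.25, which overlaps that of Tlr2.

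Irak1 was the most abundant of the 10 genes in counts, with 2195, 2369 and 2374 with the vector control and 2256, 2717 and 2176 with Malt1-WT. The levels were 121, 116 and 118 CPM against 126, 135 and 127 CPM. The groups did not overlap, but the rise was small, 0.13 on the log2 scale (SE 0.0385, edgeR adjusted p = 0.00273), 1.10-fold with a 95% interval of 1.04 to 1.16. It did not pass when libraries were scaled by their size alone (log2 fold change 0.06, adjusted p = 0.218) or without Malt1-WT replicate 2 (0.09, adjusted p = 0.0667). Over all alternatives its adjusted p was 0.00189 to 0.218.

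Irak4 counts were 329, 339 and 329 with the vector control and 266, 315 and 265 with Malt1-WT, or 18.1, 16.6 and 16.3 CPM against 14.9, 15.7 and 15.5 CPM. Every Malt1-WT library was below every vector control library, as was the case for 32.0% of all tested genes, yet the log2 fold change of -0.15 did not pass (SE 0.0888, edgeR adjusted p = 0.148). With scaling by library size alone it passed as lower (-0.22, adjusted p = 0.0256). Irak4 shares 395 exon bases (7.87%) with Twf1 on the opposite strand. Twf1 was lower in Malt1-WT (log2 fold change -0.25, adjusted p = 1.15e-07). No source used here gives the strand setting of the counting, and the part of Twf1 reads in the Irak4 counts was not tested.

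Irak3 was at the lower end of detection, with 4, 13 and 15 counts with the vector control and 8, 16 and 12 with Malt1-WT, all below 1 CPM. The groups overlapped, and the log2 fold change was 0.26 (SE 0.452, edgeR adjusted p = 0.640). Its 95% interval runs from a fold of 0.639 to 2.25, so these counts do not tell apart a fall, no change and a rise within that range. Without vector control replicate 1, the library with 4 counts, the value was -0.09. Irak3 also shares 192 exon bases (5.22%) with Tmbim4 on the opposite strand, which was at 44.7 CPM with the vector control and 97.9 CPM with Malt1-WT.

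A count of genes whose 2 groups do not overlap gave 8 of the 10, against 64.4% of all tested genes. In 7 of them Malt1-WT was above (32.4% of all tested genes), and the exception was Irak4. Irak2, Tlr2 and Tlr6, 3 of the 10, were called with a rise of 2-fold or more, as were 8.35% of all tested genes. The edgeR glmTreat test, added after looking at the data and set to ask for more than a 2-fold change, called these 3 genes as well, with adjusted p = 4.44e-20 for Irak2, 8.91e-24 for Tlr2 and 0.0409 for Tlr6. Of all tested genes it called 7.92%, with 5.4% higher. In the authors' deposited table Tlr2 has an adjusted p of 2.10e-04, Irak2 of 8.18e-04 and Tlr6 of 0.547. The headers do not name the authors' test or the size of change it was set against. These values therefore cannot be set directly beside those of the tests used here. The test statistic in the authors' deposited table is 0 for the other 7 genes. The authors' log2 fold changes differ from those given here by at most 0.1 over the 10 genes, so a statistic of 0 does not stand for equal levels.

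**Figure D3:**
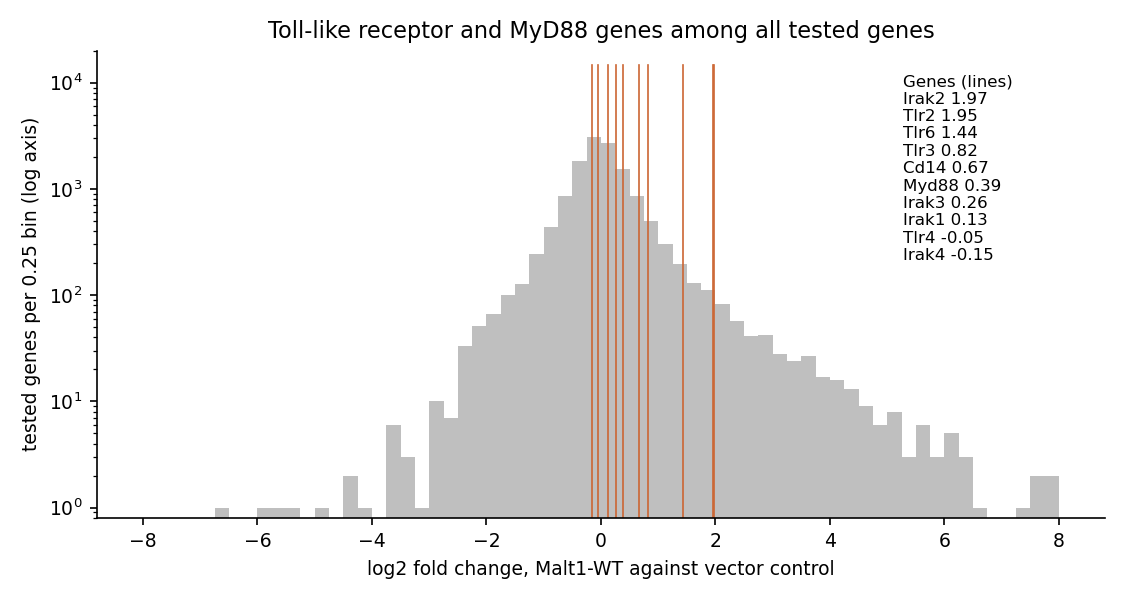
Number of tested genes by log2 fold change of Malt1-WT against vector control, in bins of 0.25 on a log axis, with 1 orange line for each of the 10 genes. The lines run from -0.15 (Irak4) to 1.97 (Irak2). The lines of Irak2 and Tlr2 nearly coincide, with 418 and 423 tested genes further to the right.

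Levels of different genes were compared as CPM per kilobase of exon, with all annotated exons of a gene merged. The order and the shares depend on these lengths, and the annotation used for counting is not given. In the vector control Irak1 was the highest at 25.1 ± 0.518 (SD, n = 3), followed by Myd88 (13.2 ± 0.937), Tlr2 (10.2 ± 0.291), Tlr4 (6.99 ± 0.411) and Irak2 (4.23 ± 0.161). Cd14 (3.40 ± 0.686) and Irak4 (3.39 ± 0.192) overlapped in their libraries. Tlr3 (2.10 ± 0.219), Tlr6 (0.533 ± 0.0703) and Irak3 (0.145 ± 0.0754) were the lowest. In Malt1-WT, on the same scale, Tlr2 was the highest at 39.1 ± 0.995 (SD, n = 3), above Irak1 at 27.5 ± 1.10. In CPM, without division by length, Irak1 (126 to 135) remained above Tlr2 (115 to 120) in Malt1-WT. Myd88 (17.3 ± 0.564) and Irak2 (16.5 ± 0.679) overlapped, followed by Tlr4 (6.74 ± 0.194), Cd14 (5.46 ± 0.175), Tlr3 (3.70 ± 0.0353), Irak4 (3.06 ± 0.0872), Tlr6 (1.45 ± 0.159) and Irak3 (0.176 ± 0.0493). The order thus changed mainly in that Tlr2 moved above Myd88 and Irak1, Irak2 moved above Tlr4, and Tlr3 moved above Irak4.

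The make-up of the receptor and kinase transcripts differed between the groups, in a measure that does not depend on the scaling of the libraries. Among the transcripts of the 4 receptor genes, taken per length, the share of Tlr2 was 51.7%, 51.2% and 51.1% with the vector control and 76.5%, 77.2% and 76.4% with Malt1-WT. The share of Tlr4 was 34.3%, 37.0% and 34.7% against 13.2%, 13.3% and 13.1%. The ratio of Tlr2 to Tlr4 went from 1.45 ± 0.0624 to 5.80 ± 0.0259 (SD, n = 3 per group), while the share of Tlr6 overlapped between the groups (2.69% ± 0.314 and 2.85% ± 0.341). The sum over the 4 receptor genes was 19.8 ± 0.499 CPM per kilobase in the vector control and 51.0 ± 1.07 in Malt1-WT (SD, n = 3 per group).

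Among the transcripts of the 4 IRAK genes, per length, the share of Irak2 was 12.8%, 12.6% and 13.2% with the vector control and 36.7%, 33.4% and 34.8% with Malt1-WT. That of Irak1 was 76.4% ± 0.196 and 58.2% ± 1.45, and that of Irak4 was 10.3% ± 0.411 and 6.47% ± 0.184 (SD, n = 3 per group). The ratio of Irak2 to Irak4 went from 1.25 ± 0.0763 to 5.41 ± 0.379, and that of Irak2 to Irak1 from 0.169 ± 0.00486 to 0.603 ± 0.0434. Altogether 15 shares and ratios were computed, and the groups did not overlap in 13 of them. As single genes, 64.4% of all tested genes did not overlap. Each of these 13 had p = 0.1 in a two-sided exact permutation test, the smallest p that 3 against 3 libraries can give, and 0.115 after Benjamini-Hochberg adjustment. The exceptions were the shares of Tlr6 and Irak3 (p = 0.6 each, exact permutation test). The 15 measures are not independent, because the shares of a family add up to a whole and many measures contain Tlr2 or Irak2. The share of Irak1, for example, fell although the level of Irak1 itself rose slightly.

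**Figure D4:**
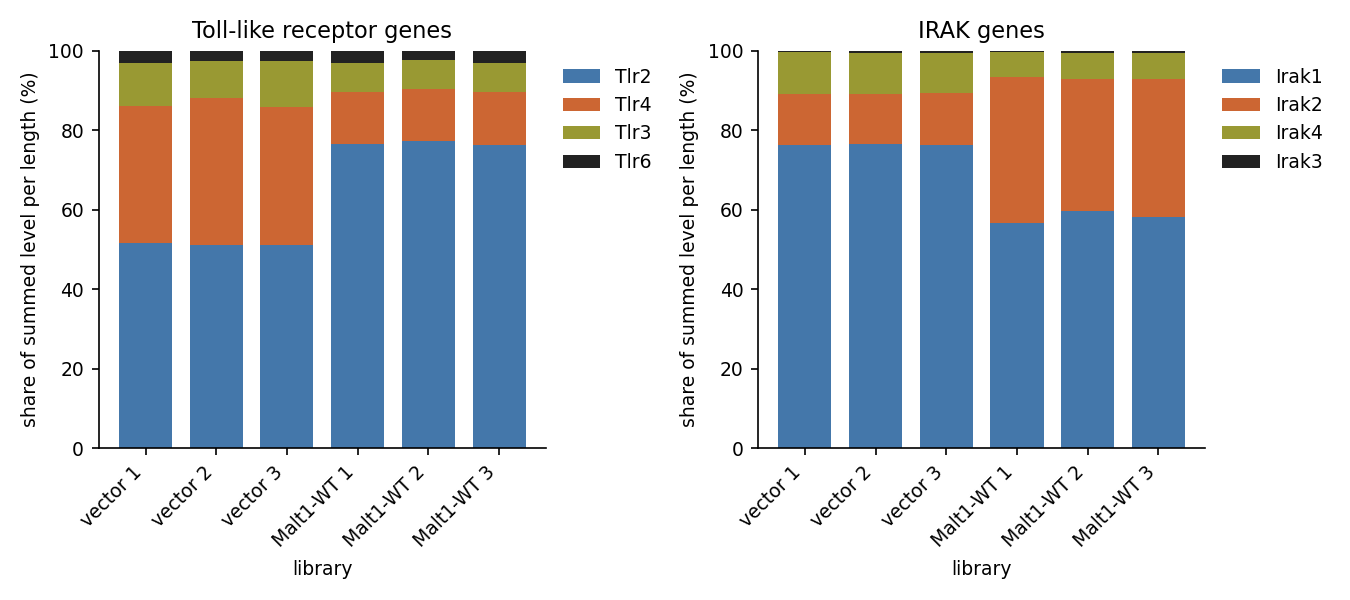
Share of each gene in the summed level per length of the 4 receptor genes (left) and the 4 IRAK genes (right), in percent, with 1 bar per library. The Tlr2 part grows from about 51.3% to 76.7% on average and the Irak2 part from 12.9% to 35.0%, with little difference between libraries of a group.

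The other genes of the pathway came from 8 lists by role, with 57 genes of which 44 were tested. Of these, 22 were higher, 11 lower and 11 did not pass, so 75% changed against 61.2% of all tested genes and 50% were higher against 31.0%. Their median log2 fold change was 0.195. The lists were drawn up with earlier results of these data known, so these shares describe the lists and do not test them. For the counts by list below, the shares over all tested genes are 31.0% higher and 30.2% lower.

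The rest of the Toll-like receptor family was low or had no counts. Of 8 further receptor genes, 3 could be tested, and all had mean levels below 2 CPM. Tlr9, a receptor for unmethylated DNA, was higher at 1.56 (log2 fold change, SE 0.392, edgeR adjusted p = 5.23e-04), from 5, 17 and 7 to 33, 29 and 19 counts. Without vector control replicate 2 its value was 2.20. Tlr7, a receptor for single-stranded RNA, was lower at -2.12 (SE 0.473, adjusted p = 1.17e-04), from 22, 37 and 16 to 4, 11 and 1 counts, and without Malt1-WT replicate 2 its value was -3.11. Tlr8 and Tlr11, named after their values were seen, had no count in any library.

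Of 9 genes for co-receptors and receptor trafficking, 5 were tested, with 4 higher and 1 lower. Lbp, which encodes the lipopolysaccharide-binding protein, had the largest change, 1.69 on the log2 scale (SE 0.106, edgeR adjusted p = 8.31e-20), from 6.30 to 20.4 CPM. Unc93b1, whose product carries endosomal receptors such as TLR3 and TLR9 to their place, rose by 0.49. The single lower gene was Cnpy3 (-0.47), a chaperone gene for Toll-like receptors, named after its value was seen. Among the other adaptors with a TIR domain, Ticam1, which encodes TRIF, the adaptor of TLR3, rose by 0.75 (16.9 to 28.4 CPM). Sarm1 was at -0.54 (adjusted p = 0.0398), a call that was lost under 6 of 13 alternatives (adjusted p 0.0184 to 0.156), among them without vector control replicate 1 or 3 and without Malt1-WT replicate 2 or 3. The third tested adaptor, Tirap, the bridge between MyD88 and TLR2 or TLR4, was also named after its value was seen and did not pass at -0.08 (adjusted p = 0.182).

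The interleukin-1 family receptors use MyD88 as well, and of 6 tested genes 2 were higher and 3 lower. Il1rl1, which encodes the interleukin-33 receptor, rose by 2.59 (log2 fold change, SE 0.160, edgeR adjusted p = 5.79e-20), from 1.85 to 11.2 CPM, and Il18r1 rose by 1.19, from 0.963 to 2.17 CPM. The 3 lower genes, named after their values were seen, were Il1rl2 (-0.47), Il1r1 (-0.32) and Il1rap (-0.11). Of 4 tested inhibitors, Il1rn, which encodes the interleukin-1 receptor antagonist, rose by 2.33 (18.8 to 94.8 CPM). Sigirr, which encodes an inhibitory receptor of the family, was at -0.19 (adjusted p = 0.0302). Its call was lost with DESeq2, without vector control replicate 3 and without Malt1-WT replicate 2 (adjusted p 0.00231 to 0.223 over all alternatives).

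Downstream of the IRAK kinases, 6 of 10 tested genes were higher and 2 lower, the latter being Ube2n (-0.15) and Tab1 (-0.18), named after their values were seen. The count of lower genes was 1 without vector control replicate 1 and 1 without Malt1-WT replicate 3. Peli3, a member of the Pellino ubiquitin ligases that act on IRAK proteins, rose by 2.31 (log2 fold change, SE 0.276, edgeR adjusted p = 2.91e-10), from 0.726 to 3.66 CPM. Traf6, the ubiquitin ligase gene next in the chain, rose by 1.24, from 60.5 to 142 CPM. In the arm that runs through TRIF to interferon regulatory factors, 6 of 7 genes were higher and 0 lower, against 31.0% and 30.2% of all tested genes. The arm was led by the kinase gene Ikbke (1.73, from 16.8 to 55.9 CPM) and the transcription factor gene Irf7 (0.96, from 37.2 to 72.6 CPM). Of 6 tested genes whose products can act as endogenous ligands of TLR2 or TLR4, 1 was higher and 2 lower. The extracellular matrix gene Tnc rose by 2.01 (55.0 to 221 CPM), while the proteoglycan gene Vcan was at -1.18 (323 to 143 CPM) and Hmgb1, named after its value was seen, at -0.85 (594 to 330 CPM).

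**Figure D5:**
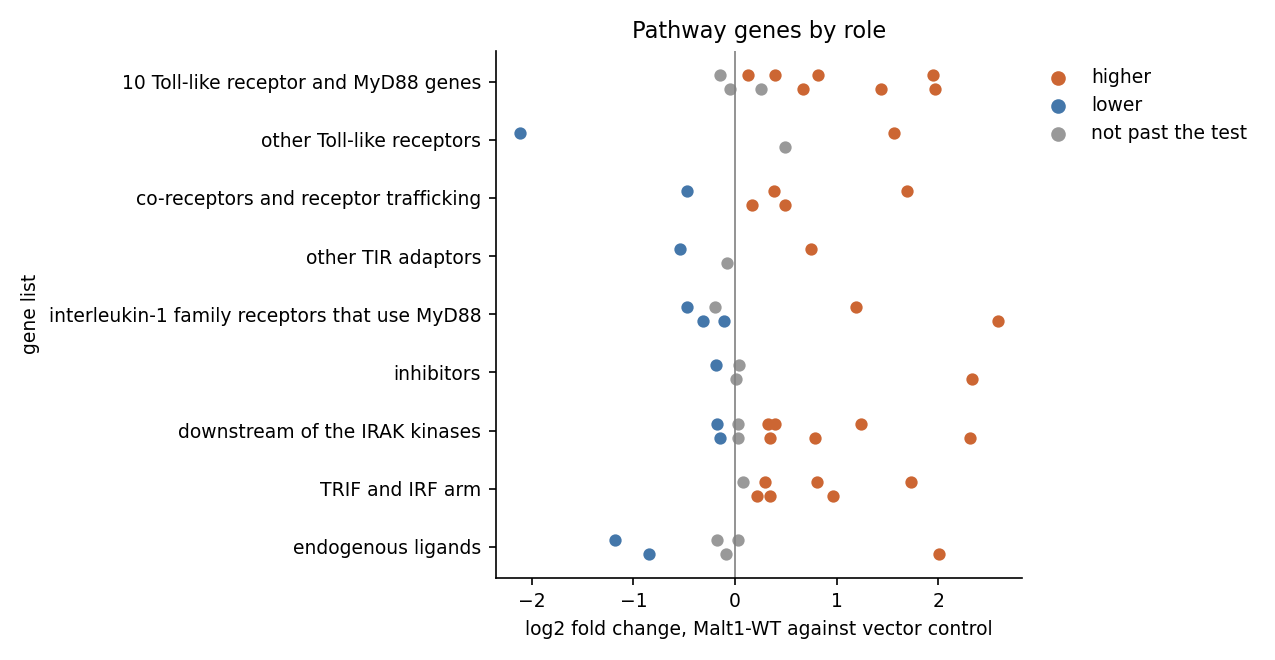
Log2 fold change of every tested gene of the 8 role lists and of the 10 genes described above, 1 point per gene and 1 row per list. Orange marks genes that passed as higher, blue as lower and grey those that did not pass. Points of the TRIF and IRF arm lie above 0 (0.08 to 1.73), while the ligands and the interleukin-1 family receptors hold both directions.

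Irak2, which had the largest change of the 10 genes, was compared in its pattern over the 6 libraries with all other tested genes, as the Euclidean distance of log2 CPM after centring each gene. For naming the nearest, the 10 genes described here, predicted genes and duplicate entries were left out. The nearest were then the chemokine gene Ccl2 (distance 0.108, log2 fold change 1.99), the glucose transporter gene Slc2a1 (0.108, log2 fold change 1.93) and Trib3 (0.127, log2 fold change 1.88). Tlr2 was at a distance of 0.155, with 10 genes nearer when no tested gene was left out. With 2 groups of 3 libraries this distance mostly reflects the size of the group difference.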

How the data were processed

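The authors deposited 1 table of raw counts per gene symbol, 1 column per library, with no normalisation, per the file headers and the values. The submitters' processing notes list featureCounts 1.6.3, STAR 2.7.3a, Trim Galore 0.6.0 and the genome build GRCm38.p6 (mm10). The annotation used for counting and its strand setting: not given in the sources used here. The same deposited table holds results of the authors, per the file headers: log2 fold change, mean log2 expression, a test statistic (a score) and its p-value, raw and adjusted.

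The counts went into edgeR 4.0.16 (R 4.3.3): filterByExpr with a minimum count of 10, TMM scaling, robust quasi-likelihood fits and glmQLFTest without a block, over the whole table. Adjusted p-values are Benjamini-Hochberg values over 13594 genes. Standard errors are the log2 fold change divided by the square root of F, and 95% intervals use the t distribution. Exon lengths, positions and overlaps came from GENCODE M21 (GRCm38), and promoter windows from RefSeq (GRCm38.p6).

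All 10 genes were named. Of each role list, the 2 genes with the largest change among those called were named, and further genes are marked in the text as picked from their values. The genes and lists were chosen with earlier results of these data known. Log2 CPM for the pattern comparison used a prior count of 2. The alternatives were other scalings, other filters (none, or a minimum count of 30), DESeq2 1.42.0, a replicate block and leaving out each library.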

Additional observations from a re-analysis of the deposited data

How the results depend on the processing

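Over 13 alternatives (12 for Irak3, which a minimum count of 30 removed), 125 of 129 log2 fold changes of the 10 genes kept their direction and their side of the threshold. The exceptions were Irak1, not past the test with library size only (0.06) and, among the fits without 1 library (0.09 to 0.15), without Malt1-WT replicate 2, Irak4, past it with library size only (-0.22), and Irak3, which was -0.09 to 0.56 without 1 library and turned sign without vector control replicate 1. The cause was not tested. Against a 2-fold change, Tlr3 (0.82), Cd14 (0.67), Myd88 (0.39) and Irak1 (0.13) no longer passed, by construction of that test. Library size only moved the median of all tested genes by -0.076 and gave 1 lower gene among the 10 in place of 0.

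Counts in the small role lists moved where 1 or 2 calls changed. Lower adaptors (1) became 2 with library size only, 0 with no filter and 0 with DESeq2, lower inhibitors (1) became 0 with DESeq2, and lower genes downstream of the IRAK kinases (2) became 1 with DESeq2. Without 1 library these were 0 to 1, 0 to 1 and 1 to 2. Among other Toll-like receptors, lower genes (1) became 2 with no filter, and a minimum count of 30 left 0 higher and 0 lower.

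With the replicate number as a replicate block, 4134 genes were higher and 4034 lower, against 4210 and 4110, and no call among the 10 genes changed. No pairing by replicate number was visible: deviations of same-numbered libraries correlated at -0.026, -0.021 and 0.017 across genes. Vector control replicates 1 and 2 did not correlate best with their own number. The labels do not say whether same-numbered libraries were prepared together, and these values cannot tell. Depth limits what can be said of Irak3, Ly96 and the further Toll-like receptors.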
